A study of Mus musculus with 9 samples.

Results

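Zbtb7b, Gata3, Runx1, Runx3, Cd4, Tcf7, Lef1, Bcl11b, Satb1 and Myb are the 10 genes described here, as CD4 lineage and T cell identity factors of semimature CD4 single-positive (SP4) thymocytes. They were picked by gene symbol from 24594 genes in the table, with earlier results of these data known. All 10 were among the 11569 genes that reached 1 RPKM (reads per kilobase of exon, scaled to library depth) in at least 2 libraries and were tested. The cells were sorted as CD4+ CD8- CD69+ Valpha2+ VBeta5+ from mixed bone marrow chimeras after 4.7 weeks of reconstitution. Each chimera held OT-II transgenic donor marrow that was Nr4a1+/+ Nr4a3+/+ (OT-II), OT-II donor marrow labelled Nr4a1-/- Nr4a3-/- (DKO), and polyclonal wild-type marrow. All sorted cells thus carried the OT-II T cell receptor, which recognises an ovalbumin peptide on MHC class II. Hosts were wild type (WT, BoyJ) or carried RIPmOVA, in which the rat insulin promoter drives membrane ovalbumin in medullary thymic epithelium as well as in pancreas, kidney and testis. The 9 libraries came from 5 chimeras: OT-II from WT hosts (n = 2), DKO-labelled from WT hosts (n = 3), OT-II from RIPmOVA hosts (n = 2) and DKO-labelled from RIPmOVA hosts (n = 2). Donor strain differed with genotype, since OT-II donors were F1 with BoyJ and DKO donors were C57BL/6, and this cannot be told apart from genotype. The labels give RIPmOVA hosts as F1 with BoyJ and WT hosts as BoyJ, but the study's methods also describe WT mice that were F1 from that cross, so whether host strain differed is unclear.

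As background, a thymocyte that passes positive selection on MHC class II becomes a CD4 cell when Gata3 and then Zbtb7b (ThPOK) are expressed, while Runx3 drives the CD8 fate. ThPOK and Runx3 restrain each other, and Runx factors act through silencers in the Cd4 and Zbtb7b loci. Tcf7 (TCF-1), Lef1 and Bcl11b establish and hold T cell identity, Satb1 organises chromatin for the lineage genes of selected thymocytes, and Myb acts in precursors, at selection and upstream of Gata3.

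Depth recovered from the low RPKM values was 15520000 to 25050000 reads a library. The cells carried T cell markers, with 234 to 318 RPKM for Cd3d, Cd3e and Cd3g in every library. Cd8a was 1.76 to 7.60 RPKM, while Cd8b1 remained at 54.5 to 96.4 RPKM and Dntt, a double-positive stage gene, at 17.0 to 30.1 RPKM, in a CD8- sort. Regulatory T cell markers (Foxp3, Il2ra and Ikzf4, all 3 measured, none under 1 RPKM in every library) summed to 5.27 to 7.14 RPKM in OT-II and 1.89 to 2.83 in DKO-labelled libraries from WT hosts. They summed to 21.0 to 25.0 RPKM in OT-II and 8.80 to 12.3 in DKO-labelled libraries from RIPmOVA hosts. Of 6 thymic epithelium markers, 4 were under 1 RPKM in every library, and the sum ran from 2.75 to 6.98 RPKM in the other groups and from 8.23 to 11.8 in DKO-labelled libraries from RIPmOVA hosts. Myeloid and dendritic markers summed to 41.2 to 53.3 RPKM in OT-II cells of RIPmOVA hosts and to 25.7 to 35.6 elsewhere. Erythroid markers (3 measured) summed to 20.6 RPKM in OT-II replicate 2 and 24.7 in DKO-labelled replicate 3 from WT hosts, against 0.816 to 2.39 in the other libraries. Whether these markers came from other cells, and their part in the results below, was not tested. Nr4a1 itself was not lower in DKO-labelled libraries, at 258 ± 33.5 against 245 ± 21.9 RPKM in OT-II from RIPmOVA hosts (SD, n = 2 each). Nr4a3 was 15.3 ± 1.70 against 4.69 ± 1.38 RPKM. Sums over all exons may include those outside a deleted stretch, which was not examined. These values therefore do not check the labels, and genotype is given as labelled throughout.

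Genes of olfactory, vomeronasal, taste and trace amine receptors, which a thymocyte should not express, measured the background of reads. Over 1490 such genes the mean was 0.323 and 0.435 RPKM in the DKO-labelled libraries from RIPmOVA hosts, the highest of the 9. It was 0.137 and 0.0496 in OT-II from RIPmOVA hosts, 0.294 and 0.0886 in OT-II from WT hosts, with DKO-labelled libraries of those hosts at 0.110, 0.302 and 0.0765. In RIPmOVA hosts background and genotype therefore cannot be told apart by group. In bulk RNA, fewer cells that express a gene and less RNA per cell cannot be told apart either.

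The factors covered a wide range of levels. Tcf7 was the third most abundant of the genes tested, with a mean of 751 RPKM over the 9 libraries. Cd4 followed at 219, Lef1 at 139, Satb1 at 135, Bcl11b at 79.8, Gata3 at 44.0, Zbtb7b at 27.8, Myb at 23.6, Runx1 at 8.26 and Runx3 at 4.63 RPKM. Every library held Tcf7 above Cd4, Cd4 above Lef1, Satb1 above Bcl11b, Bcl11b above Gata3, Gata3 above Zbtb7b and Runx1 above Runx3. Lef1 and Satb1 had no fixed order, since Lef1 was higher in 5 of 9 libraries, nor did Zbtb7b and Myb, with Zbtb7b higher in 4 of 9. Myb exceeded Runx1 in 8 of 9. Across libraries the highest value was 5.86 times the lowest for Myb, 2.08 times for Zbtb7b, and 1.27 to 1.84 times for the others. Runx3, the lowest of the group, sat at rank 6880 of 11569.

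**Figure D1:**
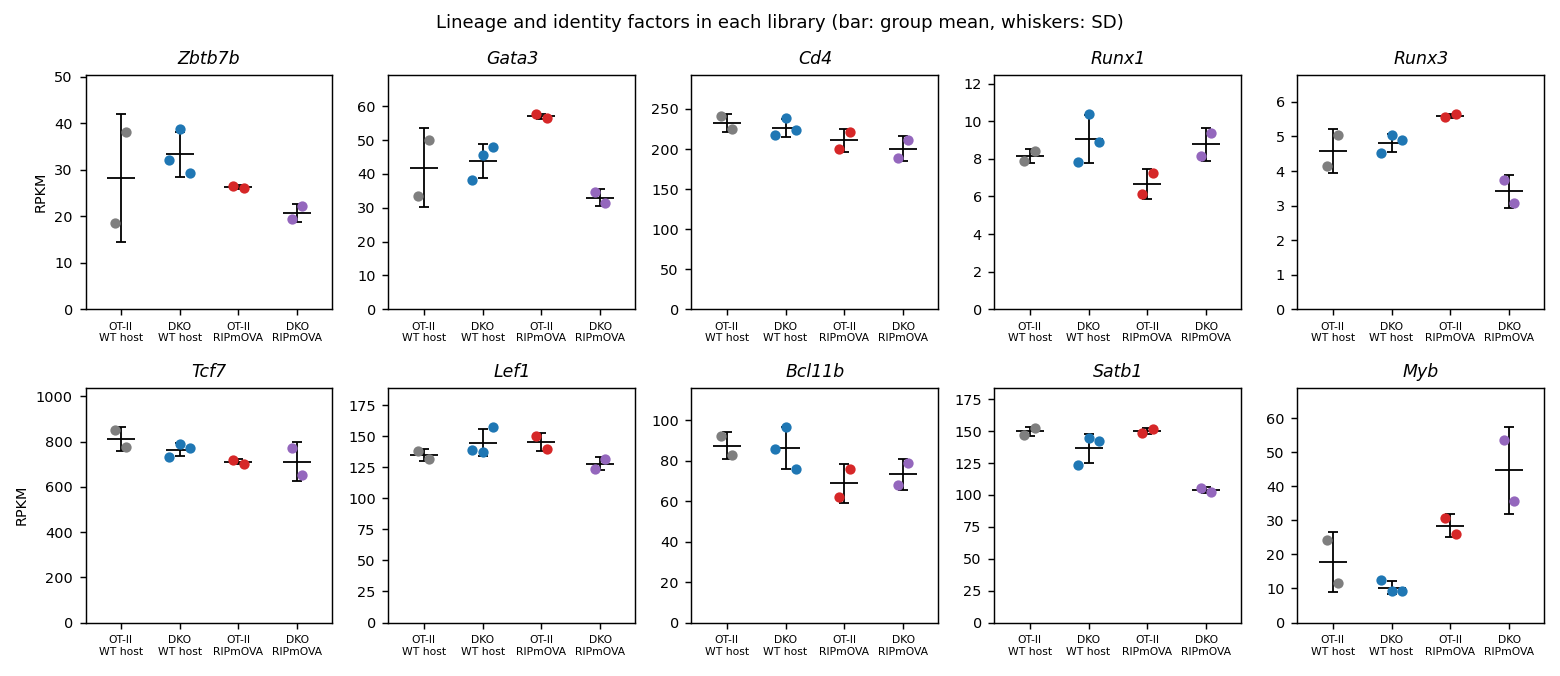
RPKM of each factor (vertical axes, from 0) in the 9 libraries, grouped by donor genotype and host. Each point is a library, the bar is the group mean and the whiskers are the SD. Satb1 in DKO-labelled libraries from RIPmOVA hosts lies at 102 and 106 RPKM, below all other libraries, and Myb reaches 53.6 RPKM there.

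Comparing hosts within a genotype asked what encounter with ovalbumin as a self-antigen changes, and comparing genotypes within a host asked what depends on Nr4a1 and Nr4a3. A gene passed the test at a limma adjusted p of 0.05 or less and was called where the log2 fold change was also at least 1 in size. In DKO-labelled cells, 2 of the 10 factors passed between hosts, Myb (higher in RIPmOVA) and Satb1 (lower), where 3.35% of all genes tested passed. Myb was called, where 1.68% of all genes were, and 5 factors had an unadjusted p under 0.05, against 17.6% of all genes. Between genotypes in RIPmOVA hosts Satb1 passed and 0 factors were called, where 2.21% of all genes passed and 1.07% were called, and 4 factors had an unadjusted p under 0.05, against 21.4% of all genes. Between hosts in OT-II cells 0 factors passed, where 1.89% of all genes passed and 1.23% were called, and 3 factors had an unadjusted p under 0.05, against 14.3% of all genes. Between genotypes in WT hosts 0 passed, where 0.0692% of all genes passed and 0.0605% were called, and 1 factor had an unadjusted p under 0.05, against 7.89% of all genes. The median log2 change of the 10 was -0.01 between hosts in OT-II, -0.20 between hosts in DKO-labelled cells, -0.13 between genotypes with the antigen (RIPmOVA) and 0.02 without it (WT). Over all genes tested the same medians were -0.02, 0.03, 0.04 and 0.01. These comparisons share groups, so they are not independent of each other.

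**Figure D2:**
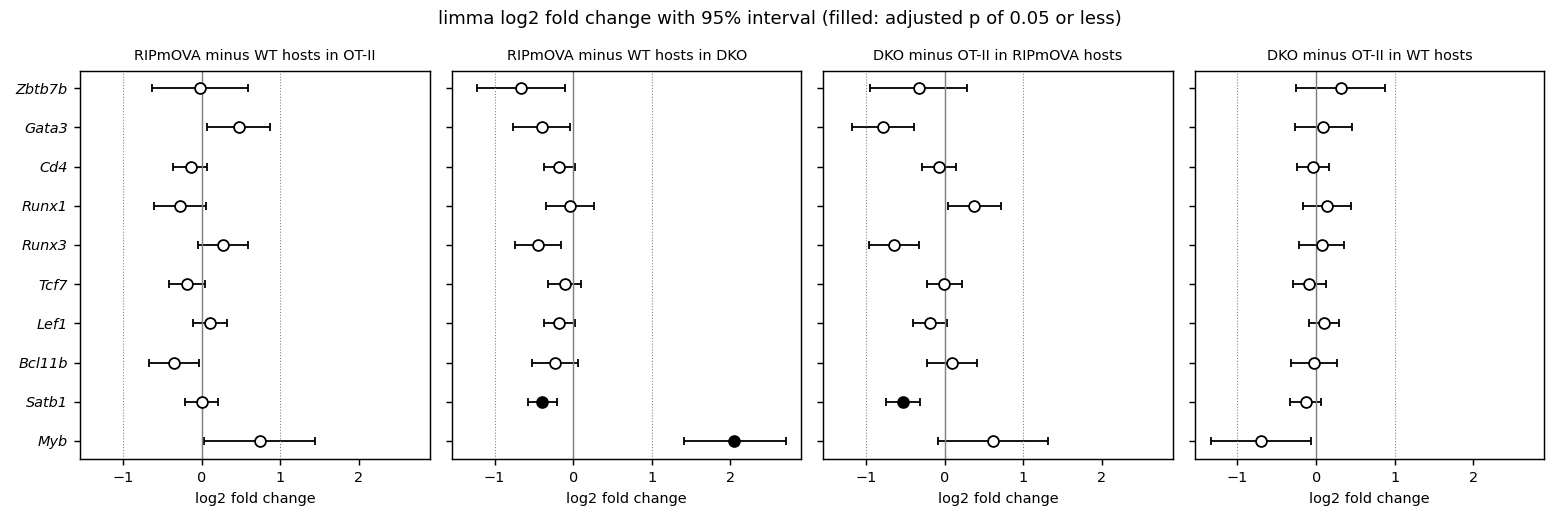
limma log2 fold change on the log2(RPKM + 0.5) scale (horizontal axes) with its 95% interval for the 10 factors in the 4 pairwise comparisons. Filled points passed the adjusted p of 0.05, and dotted lines mark a log2 change of 1 in either direction. Myb at 2.05 between hosts in DKO-labelled cells is the point beyond 1, and Satb1 is filled at -0.39 and -0.53.

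Myb (Entrez 17863, chromosome 10, 21124935 to 21160984, minus strand, GRCm38), a transcription factor of proliferating precursors, rose in DKO-labelled cells from RIPmOVA hosts. In WT hosts the DKO-labelled libraries held 12.4, 9.15 and 9.18 RPKM, and in RIPmOVA hosts 53.6 and 35.6. Both RIPmOVA libraries lie far above all 3 from WT hosts. The log2 fold change was 2.05 (SE 0.29, limma adjusted p = 0.0061), a fold of 4.15. The OT-II libraries held 24.1 and 11.7 RPKM in WT hosts and 30.8 and 26.1 in RIPmOVA hosts. These groups did not overlap either, but they lie close, and the log2 change of 0.74 (SE 0.31, limma adjusted p = 0.33) did not pass. The difference between the host effects was 1.32 (SE 0.42, limma adjusted p = 0.46), so a larger effect in DKO-labelled cells was not shown. Between genotypes Myb differed by 0.62 in RIPmOVA hosts and by -0.70 in WT hosts (limma adjusted p = 0.28 and 0.59). In WT hosts the genotypes overlapped, since the lower OT-II library at 11.7 RPKM was under the highest DKO-labelled one at 12.4.

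The Myb call held in 8 of 9 fits with 1 library left out. It was lost without DKO-labelled replicate 1 from RIPmOVA hosts, which held 53.6 RPKM, where the log2 change was 1.76 with an adjusted p of 0.061. Where a group is left with 1 library, here and below, that library is assumed to vary like the other groups. With sensory receptor background as a covariate it was 1.81 with an adjusted p of 0.07. Among the 4 libraries with the highest background, those from WT hosts held 24.1 (OT-II) and 9.15 (DKO-labelled) RPKM, both below 53.6 and 35.6. No WT-host library had a background as high as 0.323 and 0.435, so background cannot be told apart from group here. The annotation of Myb shares 559 exonic bases with Gm26577 on the other strand, and the use of strand in counting is not given in the sources used here.

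Satb1 (Entrez 20230, chromosome 17, 51736187 to 51833290, minus strand, GRCm38), a chromatin organiser needed for the CD4 and regulatory T cell programs, fell in DKO-labelled cells from RIPmOVA hosts. Its values there were 106 and 102 RPKM. OT-II cells from the same hosts held 148 and 152 RPKM, and the log2 difference between genotypes was -0.53 (SE 0.09, limma adjusted p = 0.025). DKO-labelled cells from WT hosts held 124, 144 and 142 RPKM, and the log2 difference between hosts was -0.39 (SE 0.09, limma adjusted p = 0.043). In both comparisons the groups did not overlap, and both changes were under the limit for a call. OT-II cells held 147 and 152 RPKM in WT hosts, the same range as in RIPmOVA hosts, with a 95% interval of the log2 host effect from -0.21 to 0.21. All 3 DKO-labelled libraries from WT hosts were below both OT-II libraries, but the difference of -0.13 (limma adjusted p = 0.77) did not pass. The difference between host effects was -0.39 (SE 0.13, limma adjusted p = 0.46).

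Neither Satb1 result held under all settings. Of 13 settings other than leaving out a single library, 4 lost the pass between genotypes and 7 that between hosts, with log2 changes of -0.57 to -0.46 and -0.41 to -0.34. With no filter the adjusted p was 0.056 between genotypes and 0.11 between hosts, and with quantile normalization 0.057 and 0.082. With the background covariate the difference between genotypes kept its size, -0.53, with an adjusted p of 0.27, and that between hosts was -0.39 with 0.26. Leaving out replicate 1 or 2 of OT-II or of DKO-labelled cells from RIPmOVA hosts gave an adjusted p of 0.081 to 0.15 between genotypes. The same left-out libraries gave 0.083 to 0.20 between hosts in DKO-labelled cells, and leaving out WT-host libraries OT-II 2, DKO-labelled 2 or DKO-labelled 3 gave 0.052, 0.068 and 0.15. The WT-host libraries with high background held 147 (OT-II) and 144 (DKO-labelled) RPKM, near the other WT-host libraries and above 106 and 102. As for Myb, their background was below that of the DKO-labelled RIPmOVA libraries, so background cannot be told apart from group. Exons of Satb1 share 156 bases with Gm36931 and 128 with Gm6934.

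Zbtb7b (Entrez 22724, chromosome 3, 89377644 to 89394776, minus strand, GRCm38) encodes ThPOK, the factor that commits thymocytes to the CD4 fate. In WT hosts OT-II cells held 18.6 and 38.0 RPKM, and DKO-labelled cells 32.0, 38.7 and 29.2. With RIPmOVA, OT-II cells held 26.5 and 25.9 RPKM, and DKO-labelled cells 19.4 and 22.1. The DKO-labelled groups did not overlap between hosts, while the OT-II libraries from WT hosts spanned most of the range. The log2 host effect was -0.66 (SE 0.25, limma adjusted p = 0.21) in DKO-labelled and -0.02 (SE 0.27) in OT-II cells. The difference between genotypes in RIPmOVA hosts was -0.33 (limma adjusted p = 0.50). The spread of the OT-II libraries from WT hosts weighed on these values. Without either of them, the log2 host effect in DKO-labelled cells kept its size. Without OT-II replicate 2 the difference between genotypes in WT hosts was 0.82, against 0.31 with all libraries. Such fits leave that OT-II group with 1 library, so its spread came from the other groups alone. With library weights the host effect in DKO-labelled cells was -0.61 (adjusted p = 0.049), where 1315 of all genes passed against 387 in the main fit. With both high-background WT-host libraries left out it was -0.55. With the background covariate it was -0.54 (adjusted p = 0.70), and 10 of the 13 other settings gave no pass.

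Gata3 (Entrez 14462, chromosome 2, 9857078 to 9890034, minus strand, GRCm38), which acts before ThPOK in CD4 commitment, held 57.6 and 56.6 RPKM in OT-II cells from RIPmOVA hosts. DKO-labelled cells from those hosts held 34.7 and 31.3 RPKM. These groups lie far apart for their spread, with a log2 difference of -0.78 (SE 0.18, limma adjusted p = 0.059), a fold of 0.581, which did not pass in the fit without pairing. Both genotypes were sorted from the same chimeras, and with the chimera as replicate block the adjusted p was 0.037 as a random and 0.034 as a fixed term. It passed in 6 of the 13 other settings, these included, and in 2 of 9 fits with 1 library left out. Of all genes tested 256 passed this comparison in the main fit, 380 with the random block and 180 with the fixed block. With library weights, 1 of the settings where Gata3 passed, 935 did. With the background covariate the log2 difference of Gata3 was -0.56 with an adjusted p of 0.53. In WT hosts OT-II cells held 33.6 and 50.1 RPKM and DKO-labelled cells 38.3, 45.7 and 47.9. These overlapped, with a log2 difference of 0.09 (95% interval -0.27 to 0.45). The host effect was 0.47 (SE 0.18, limma adjusted p = 0.25) in OT-II and -0.40 (SE 0.16, limma adjusted p = 0.24) in DKO-labelled cells. The effect in OT-II turned on the WT-host libraries, at 0.76 (adjusted p = 0.029) without OT-II replicate 2 and 0.19 (adjusted p = 0.82) without replicate 1. The OT-II library from WT hosts with high background, at 33.6 RPKM, lay near the DKO-labelled RIPmOVA libraries. Exons of Gata3 share 77 bases with 9230102O04Rik and 155 with Gm13256.

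Cd4 (Entrez 12504, chromosome 6, 124864692 to 124888221, minus strand, GRCm38), the coreceptor itself, was 233 ± 11.3 RPKM in OT-II (SD, n = 2) and 227 ± 10.9 (SD, n = 3) in DKO-labelled cells from WT hosts. In RIPmOVA hosts it was 211 ± 14.4 and 200 ± 15.4 RPKM (SD, n = 2 each). Both groups from RIPmOVA hosts lay below those from WT hosts of the same genotype without overlap, by log2 changes of -0.14 (OT-II) and -0.18 (DKO-labelled) (limma adjusted p = 0.55 and 0.32). The 95% intervals of the 4 pairwise differences reached from -0.37 to 0.16. The ratio of Cd4 to Cd8a RPKM was 79.6 and 80.6 in OT-II and 85.0 to 123 in DKO-labelled cells from WT hosts. With RIPmOVA, OT-II cells had ratios of 26.4 and 60.7 and DKO-labelled cells 62.4 and 72.2, where Cd8a was 7.60 and 3.64 RPKM in OT-II.

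Runx3 (Entrez 12399, chromosome 4, 135120652 to 135177990, plus strand, GRCm38), the factor of the CD8 fate, was measured at 3.08 to 5.64 RPKM in these CD4 cells. OT-II cells held 4.14 and 5.03 RPKM in WT hosts and 5.56 and 5.64 in RIPmOVA hosts. DKO-labelled cells held 4.53, 5.03 and 4.90 RPKM in WT hosts and 3.76 and 3.08 in RIPmOVA hosts. The genotypes overlapped in WT hosts, while in RIPmOVA hosts OT-II lay above and DKO-labelled cells below all WT-host libraries. The log2 difference there was -0.64 (SE 0.14, limma adjusted p = 0.054), a fold of 0.640, which did not pass. With the chimera as a random replicate block the adjusted p was 0.036, while as a fixed block it did not pass (adjusted p = 0.089). It passed in 6 of the 13 other settings and in 2 of 9 fits with 1 library left out, and was -0.55 with the background covariate (adjusted p = 0.47). Of all genes tested 256 passed this comparison in the main fit, 380 with the random block, 407 with quantile normalization and 935 with library weights. Runx3 passed in these last 3 settings. Its host effect was 0.27 (limma adjusted p = 0.44) in OT-II and -0.45 (SE 0.13, limma adjusted p = 0.11) in DKO-labelled cells. With library weights the latter had an adjusted p of 0.043, where 1315 of all genes passed against 387 in the main fit.

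Runx1 (Entrez 12394, chromosome 16, 92601466 to 92826149, minus strand, GRCm38), a paralogue used earlier in thymocytes, had the opposite order. In RIPmOVA hosts OT-II cells held 6.11 and 7.23 RPKM and DKO-labelled cells 8.15 and 9.39, a log2 difference of 0.37 (SE 0.15, limma adjusted p = 0.20). Without the antigen, OT-II cells held 7.90 and 8.40 RPKM and DKO-labelled cells 7.85 to 10.4. The ratio of Runx1 to Runx3 RPKM in RIPmOVA hosts was 1.10 and 1.28 for OT-II and 2.17 and 3.05 for DKO-labelled cells. All 5 libraries from WT hosts lay between, at 1.67 to 2.07. The ratio is given as a description and has no test. Exons of Runx1 share 106 bases with Gm26626, and those of Zbtb7b share 116 with Gm15417.

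The upstream promoters of Runx1 and Runx3 are shown because they hold the same pair of RUNX motifs (ACCACA, or TGTGGT on the other strand) in 18 shared bases. The Zbtb7b window holds a single RUNX motif in its inner promoter. Sequences are RefSeq promoters of GRCm38.p6, 250 bases before to 50 after each start, cut to 30 bases on the strand of the gene, with the motif in capitals. The first match lies 28 bases after the start in Runx1, 134 bases before it in Runx3 and 89 bases before it in Zbtb7b.
Runx1 (chr16:92826025-92826054, minus strand): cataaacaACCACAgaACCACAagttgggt
Runx3 (chr4:135120503-135120532, plus strand): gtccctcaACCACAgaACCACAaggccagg
Zbtb7b (chr3:89387743-89387772, minus strand): ctggcgaggaacTGTGGTatgtgagtgggt
Of 20 promoters of 9 members (Cd4 had no entry), 3 held the RUNX motif on either strand, 15% against 16.8% of all 32851 promoters. GATA motifs (AGATAA) were in 1 promoter of Lef1, 5% against 11.2%, and TCF motifs (CTTTGA) in 1 promoter each of Lef1 and Bcl11b, 10% against 16%. A match is only a run of letters and not a bound site.

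Tcf7 (Entrez 21414, chromosome 11, 52252371 to 52283014, minus strand, GRCm38) encodes TCF-1, which opens T lineage chromatin. It was 811 ± 52.9 RPKM in OT-II (SD, n = 2) and 764 ± 28.4 (SD, n = 3) in DKO-labelled cells from WT hosts. In RIPmOVA hosts it was 711 ± 11.6 and 711 ± 85.6 RPKM (SD, n = 2 each). None of its changes passed, and the 95% intervals of the 4 pairwise log2 differences reached from -0.42 to 0.22. Its second promoter is shown because it was the one with the binding motif of Nr4a monomers (NBRE, AAAGGTCA), found in 1 of the 20 promoters (5%) and in 1.51% of all promoters. The match is on the other strand and lies 13 bases before the start.
Tcf7 (chr11:52282590-52282619, minus strand): ttccggtgcccTGACCTTTataggagtaaa
Tcf7 did not differ detectably between genotypes, with log2 differences of -0.0047 (95% interval -0.23 to 0.22) in RIPmOVA and -0.09 (-0.29 to 0.12) in WT hosts.

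Lef1 (Entrez 16842, chromosome 3, 131110471 to 131224356, plus strand, GRCm38), the partner of TCF-1, was 135 ± 4.67 and 145 ± 7.33 RPKM in OT-II from WT and RIPmOVA hosts (SD, n = 2 each). In DKO-labelled cells it was 145 ± 11.0 (SD, n = 3) and 128 ± 5.34 RPKM (SD, n = 2). The OT-II libraries lay higher in RIPmOVA than in WT hosts and the DKO-labelled ones lower, without overlap, but by log2 changes of only 0.11 and -0.18 (limma adjusted p = 0.67 and 0.32). The annotation of Lef1 shares 1208 exonic bases with Gm43352 on the other strand. The ratio of Tcf7 to Lef1 RPKM ran from 4.79 to 6.23 over the 9 libraries, and the groups overlapped.

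Bcl11b (Entrez 58208, chromosome 12, 107910403 to 108003602, minus strand, GRCm38), the gatekeeper of T cell commitment, was 87.5 ± 6.54 and 68.8 ± 9.77 RPKM in OT-II from WT and RIPmOVA hosts (SD, n = 2 each). In DKO-labelled cells it was 86.2 ± 10.3 (SD, n = 3) and 73.3 ± 7.57 RPKM (SD, n = 2). The log2 host effects of -0.35 and -0.23 (limma adjusted p = 0.30 and 0.37) did not pass. The genotypes overlapped in both hosts.

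The interaction asked whether the host effect differed between genotypes. It passed for 0 of the 10 factors, where 0.0173% of all genes passed or were called, and 4 factors had an unadjusted p under 0.05, against 9.32% of all genes. These were Runx3 at -0.71 (SE 0.19, limma adjusted p = 0.43), Gata3 at -0.87 (SE 0.24, limma adjusted p = 0.44), and Satb1 and Myb at -0.39 and 1.32 as above. Without OT-II replicate 2 from WT hosts 3 factors were called, Zbtb7b at -1.15, Gata3 at -1.16 and Myb at 1.82 (adjusted p = 0.039, 0.032 and 0.038). That group then held 1 library, so its spread came from the other groups alone. The library kept was the one with high background, at 0.294 RPKM of sensory receptors, and the one left out held 20.6 RPKM of erythroid markers. Under that setting 159 genes were called over the whole table, against 2 with all libraries.

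**Figure D3:**
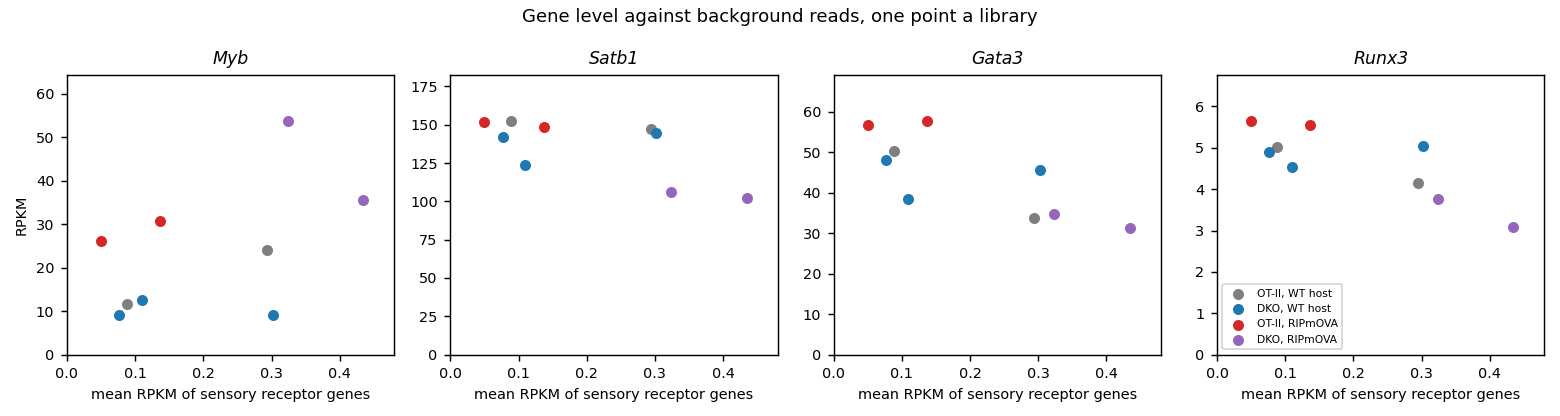
RPKM of Myb, Satb1, Gata3 and Runx3 (vertical axes, from 0) against the mean RPKM of 1490 sensory receptor genes (horizontal axes), with 1 point a library coloured by group. The DKO-labelled libraries from RIPmOVA hosts lie farthest right, at 0.323 and 0.435, and WT-host libraries near 0.3 lie above them in Satb1 and below them in Myb.

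Genes around the factors were taken from 5 lists of known partners and targets. The median log2 changes of the lists are given in the order host in OT-II, host in DKO-labelled cells, genotype in RIPmOVA hosts and genotype in WT hosts, where all genes tested had -0.02, 0.03, 0.04 and 0.01. They were 0.13, -0.02, -0.13 and -0.03 for CD4/CD8 lineage and silencer partners, -0.08, 0.05, -0.19 and -0.10 for TCF/LEF partners, and 0.22, -0.03, -0.18 and 0.05 for commitment and Notch genes. They were 2.04, 0.65, -0.94 and 0.0021 for the innate-like list and 0.89, 0.53, -0.21 and -0.15 for effector regulators. Of the tested list genes 8 were under 1 RPKM in every WT-host library and reached the filter through RIPmOVA libraries, so they had to differ, and the medians and counts of lists that hold them support no direction. These were Tcf7l1, Hes1, Kit, Nfil3, Klrd1, Tbx21, Foxp3 and Ifng. With no filter Hes1, Kit, Nfil3, Tbx21 and Foxp3 also passed in the comparisons given below (limma adjusted p = 0.0033 to 0.041). That fit used the same libraries, and the lists were chosen with earlier results known, so it gives no separate support. The values of these genes below are a description. Of 19 tested CD4/CD8 lineage and silencer partners (of 20 listed), 1 passed in any comparison. This was Cd40lg, the CD40 ligand of helper T cells, lower in DKO-labelled than OT-II cells from RIPmOVA hosts, where 2.21% of all genes passed. Its values were 102 and 111 RPKM against 180 and 180, a log2 change of -0.76 (SE 0.16, limma adjusted p = 0.048). Of 12 tested TCF/LEF partners and Wnt targets (of 14 listed), 0 passed in any comparison. The lowest adjusted p was that of the corepressor Tle4 between hosts in DKO-labelled cells, with a log2 difference of -0.69 (limma adjusted p = 0.10).

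Of 10 tested commitment and Notch genes (of 12 listed), 1 passed, between hosts in OT-II cells, where 1.89% of all genes passed. Hes1, a Notch target, was higher between hosts in OT-II cells, with 2.59 and 2.16 RPKM in RIPmOVA against 0 and 0.068 in WT hosts. The log2 change was 2.43 (limma adjusted p = 0.033) and 4.25 at a pseudocount of 0.1, where it did not pass (adjusted p = 0.082). Only 5 of 15 genes of alternative and innate-like lineages reached the filter, and Spi1 and Zbtb16, which mark myeloid and innate-like T cells, stayed under 1 RPKM in every library. Kit, the stem cell factor receptor, rose in both genotypes, from 0.124 and 0.136 to 8.32 and 8.13 RPKM in OT-II and from between 0.045 and 0.196 to 9.01 and 2.67 in DKO-labelled cells. Its log2 changes were 3.79 and 3.12 (limma adjusted p = 0.0035 and 0.0036), and the first had an adjusted p of 0.055 with the high-background WT-host libraries left out. Nfil3 rose in OT-II cells from 0.223 and 0.214 to 2.93 and 2.65 RPKM (log2 change 2.19, limma adjusted p = 0.029). Id2, which restrains E proteins, was lower in DKO-labelled than OT-II cells from RIPmOVA hosts, with 45.5 and 44.4 against 80.4 and 93.7 RPKM, a log2 change of -0.94 (SE 0.17, limma adjusted p = 0.028). In this list 2 genes passed between hosts in OT-II, 1 between hosts in DKO-labelled cells and 1 between genotypes in RIPmOVA hosts. Of all genes tested 1.89%, 3.35% and 2.21% passed in these comparisons.

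Of 10 tested effector lineage regulators (of 15 listed), 2 passed between hosts in OT-II and 3 in DKO-labelled cells, all higher in RIPmOVA hosts. Of all genes tested 1.89% and 3.35% passed there, with 165 of 219 and 268 of 387 higher. Tbx21, which encodes T-bet, rose from 0.207 and 0.174 to 5.92 and 4.85 RPKM in OT-II and from between 0 and 0.259 to 7.44 and 4.01 in DKO-labelled cells. The log2 changes were 3.09 and 3.29 (limma adjusted p = 0.0021 and 0.00069). Bcl6 rose by 1.12 in OT-II and 0.86 in DKO-labelled cells (limma adjusted p = 0.034 and 0.047), and Batf by 0.99 in DKO-labelled cells (limma adjusted p = 0.0053). Batf, Bcl6 in DKO-labelled cells, Id2 and Cd40lg passed but were not called, and their passes were not checked under other settings. Foxp3 was lower in DKO-labelled cells from RIPmOVA hosts, at 0.092 and 0.077 against 1.90 and 3.31 RPKM in OT-II (log2 change -2.37, limma adjusted p = 0.020). It did not pass with the chimera as a fixed replicate block (adjusted p = 0.12), with a pseudocount of 0.1 (0.068), with the background covariate (0.11) or without any 1 of the RIPmOVA libraries of either genotype (adjusted p = 0.076 to 0.21). Hes1, Nfil3 and Bcl6 did not pass in OT-II without OT-II replicate 1 from WT hosts or either OT-II library from RIPmOVA hosts (adjusted p = 0.051 to 0.30). With 1 library left out the log2 changes ran from 2.32 to 2.54 for Hes1, from 2.13 to 2.26 for Nfil3 and from 0.85 to 1.39 for Bcl6. Other settings lost the pass in 7 of 12 for Hes1, 5 of 12 for Nfil3 and 6 of 13 for Bcl6, with adjusted p up to 0.15, 0.12 and 0.23. They also lost their pass without DKO-labelled replicate 3 from WT hosts, which enters through the shared spread (adjusted p = 0.053 for Hes1, 0.054 for Nfil3 and just above the threshold for Bcl6). Nfil3 did so without DKO-labelled replicate 1 from WT hosts (adjusted p = 0.051), and Bcl6 without replicate 2 (adjusted p = 0.065). Between genotypes in WT hosts, and in the interaction, 0 genes of the 5 lists passed.

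**Figure D4:**
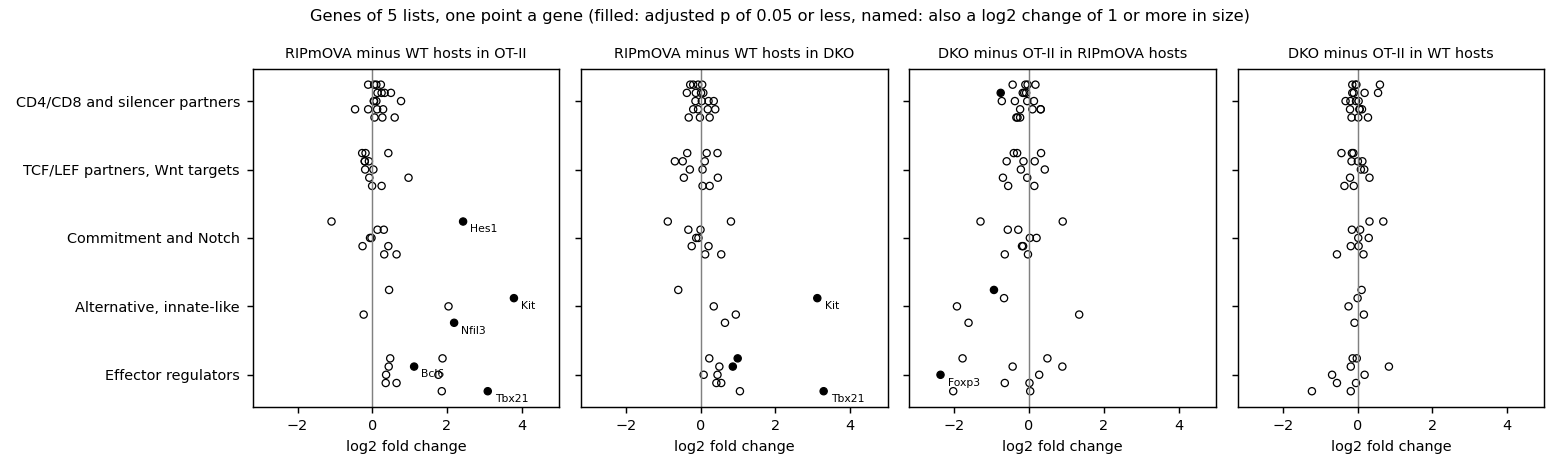
limma log2 fold change on the log2(RPKM + 0.5) scale (horizontal axes) of the tested genes of 5 lists in the 4 pairwise comparisons, with 1 point a gene. Filled points passed the adjusted p of 0.05 and named points were also at least 1 in size. The CD4/CD8 list lies between -0.76 and 0.77 and the TCF/LEF list between -0.70 and 0.97, while Kit and Tbx21 lie above 3 in both host comparisons.

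Genes with the pattern most like each factor that passed were found over the 9 libraries by the mean absolute difference of library-centred log2(RPKM + 0.5). For Satb1 they were Csad at 0.0345 and Stt3b at 0.0579. For Myb they were Casp4 at 0.220 and Mirt1 at 0.239. With 9 libraries and 11569 genes such nearness is a description.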

How the data were processed

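RNA was sequenced as paired-end SMART-seq v4 and Nextera XT libraries. Per the study's methods, the authors aligned reads with STAR to mm10 with GENCODE vM17 annotation, removed duplicates marked by Picard, summed reads over the exons of each Entrez gene and deposited RPKM values for each library, rounded to 3 decimals. The use of strand is not given in the sources used here. RPKM are not counts, so the count test of the study was not used. Depth was recovered from low RPKM values and exon lengths, where 100% of low values came out whole within 0.1 read.

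Groups came from the labels. limma 3.58.1 in R 4.3.3 was fitted to log2(RPKM + 0.5) in all 9 libraries, with 4 group means, an intensity trend and Benjamini-Hochberg adjustment over the 11569 genes that reached 1 RPKM in 2 or more libraries, two-sided. Fold changes on this scale understate those of low genes. The fit was tested on simulated data. Same-numbered libraries of a host came from the same chimera by the labels. Their deviations from the group means correlated at 0.01 and -0.24 in WT and at -0.08 in RIPmOVA hosts. Both RIPmOVA groups held 2 libraries, so their pairs must give the same value. The members and lists were chosen with earlier results of these data known. The named genes were the 10 members, the list genes called or passing or lowest in adjusted p, and 2 pattern neighbours of each member that passed. Aes and Hba-a2 were not matched, and protein sequences were not used here. Alternatives covered the pseudocount, filter, scaling, fit, block and background, and each library left out in turn.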

Additional observations from a re-analysis of the deposited data

Results flagged for a closer look

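Gata3, Runx3 and Lef1 were picked out because every OT-II library from RIPmOVA hosts lay above all OT-II libraries from WT hosts, while every DKO-labelled library from RIPmOVA hosts lay below all DKO-labelled ones from WT hosts. The share of all genes that meet this rule was not counted, and small groups separate easily. The values below come from the libraries that picked the genes, so they are a description and no further support. The difference of the host effects was -0.87 for Gata3 (SE 0.24, limma adjusted p = 0.44), -0.71 for Runx3 (SE 0.19, limma adjusted p = 0.43) and -0.28 for Lef1 (SE 0.13, limma adjusted p = 0.53). None passed the test of the difference in all 9 libraries, and without OT-II replicate 2 from WT hosts Gata3 was -1.16 (adjusted p = 0.032), a fit in which that group held 1 library and only the other groups gave the spread.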

How the results depend on the processing

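Each of the 5 comparisons was recomputed under 24 other settings where they could be fitted. High-background WT-host libraries were left out as a setting chosen after seeing the data. Between hosts in DKO-labelled cells the 1 member called became 0 with the background covariate and 2 on adjusted p alone, and 0 to 1 with each library left out. Between genotypes in RIPmOVA hosts 0 called became 1 on adjusted p alone. The interaction called 0, and 0 to 3 with each library left out. Other counts of members called did not move. The chimera replicate block called 0, 1, 0, 0 and 0 members in the 5 comparisons and changed no other pass among members and called list genes than those of Gata3, Runx3 and Foxp3 above. Across hosts same-numbered libraries shared only a number, with correlations of 0.23 for OT-II and of 0.10 and 0.23 for the DKO-labelled pairs. Both OT-II groups held 2 libraries, so their pairs must give the same value. That replicate block took the genes called from 142 to 78 in OT-II and from 194 to 110 in DKO-labelled cells. It called 0 and 1 members, and Satb1 lost its pass between hosts (adjusted p = 0.14).

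Of the log2 changes of members none that passed changed sign. Others did in 13 of 640 values, counted for each member, comparison and setting beside leaving out a library. With the high-background WT-host libraries left out, Satb1 between hosts in OT-II was -0.02 (-0.00048 with the random block), Runx1 between hosts in DKO-labelled cells 0.06 (0.04 with library weights), and between genotypes in WT hosts Zbtb7b was -0.31 (0.31 with all libraries), Gata3 -0.22, Runx1 -0.0047 and Runx3 -0.09. Bcl11b was -0.05 between genotypes in RIPmOVA hosts and -0.03 in the interaction with the background covariate, and 0.06 between genotypes in WT hosts with the fixed block. With quantile normalization Cd4 was 0.01 between genotypes in WT hosts and Tcf7 -0.05 in the interaction. The cause was not tested.

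With each library left out, host effects in OT-II ran from -0.53 to 0.49 for Zbtb7b and from -0.02 to 0.03 for Satb1. Those in DKO-labelled cells ran from -0.14 to 0.06 for Runx1 and from -0.23 to 0.02 for Tcf7. Between genotypes in RIPmOVA hosts Cd4 ran from -0.15 to 0.0043, Tcf7 from -0.13 to 0.12 and Bcl11b from -0.05 to 0.24. In WT hosts Zbtb7b ran from -0.20 to 0.82, Gata3 from -0.19 to 0.38, Cd4 from -0.09 to 0.01, Runx3 from -0.06 to 0.20 and Bcl11b from -0.11 to 0.06. The interaction ran from -0.11 to 0.04 for Cd4, from -0.04 to 0.20 for Tcf7 and from -0.02 to 0.26 for Bcl11b. Groups of 2 or 3 libraries limit all of these. As for depth, Runx3 had at least 362 and every other member at least 1075 reads in each library.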
